A study of Homo sapiens with 2 samples.

Results

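Transcripts of 54 genes for the enzymes, transporters and regulators of glycolysis, pyruvate entry into mitochondria, the pentose phosphate pathway and the citrate cycle were examined in SU-DHL-1 cells after knockdown of the NKL homeobox gene HLX. The genes were chosen by pathway out of 19775 genes read by at least 1 probe set of their own on the array. The choice was made with earlier results of these data known. SU-DHL-1 is an established line derived from anaplastic large cell lymphoma (ALCL). The data were 2 Affymetrix HG-U133 Plus 2.0 arrays, 1 of cells electroporated with 80 pmol of an siRNA against HLX (siHLX) and 1 of cells given the same amount of a negative control siRNA (siCTR), both harvested after 20 h. The experiment was made to find genes downstream of HLX. The siRNA is a transient knockdown in a single line, and both groups went through electroporation and siRNA delivery.

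Glycolysis splits glucose into pyruvate in the cytosol, and lactate dehydrogenase turns pyruvate into lactate when it is not burned. Pyruvate enters the citrate cycle through the mitochondrial pyruvate dehydrogenase (PDH) complex, which PDH kinases switch off and PDH phosphatases switch on. The pentose phosphate pathway branches off from glucose-6-phosphate and yields NADPH and ribose for nucleotides. Proliferating lymphoid cells, and tumour cells in general, are known for using much glucose even where oxygen is at hand, and many glycolytic genes are known targets of the hypoxia factor HIF and of MYC.

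Values are log2 intensities per probe set, and every difference is siHLX minus siCTR, so that 1 unit is a 2-fold change. There was 1 array per treatment. No replicate error exists, no test was possible, and all differences describe these 2 arrays. A gene was read by its brightest probe set, the one with the highest mean of both arrays, and counted if that mean reached 4.865, the median of all probe sets. Of the 54 members, 50 had a probe set of their own and all 50 passed this threshold; SLC16A1, SLC16A3, SDHB and FH were not analysed here. In a bulk sample, fewer cells with a transcript and less of it per cell cannot be told apart.

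HLX itself read 7.70 with siHLX and 8.15 with siCTR on its only probe set, a difference of -0.45 or 0.732 times the control level. All 8 markers of ALCL and activated cytotoxic T cells, among them TNFRSF8 (CD30), ALK and GZMB, lay above the threshold, with readings from 6.58 to 13.41 with siHLX and from 6.23 to 13.39 with siCTR. The threshold was passed by 12135 of all 19775 genes. Of the B cell markers 2 of 4 with a probe set passed, of the myeloid markers 1 of 4, of the erythroid markers 2 of 2 and of the epithelial and stromal markers 3 of 5. None of these read above 7.43 with siHLX or 7.62 with siCTR, and their part in the results was not tested. The poly-A control transcripts, which are spiked in before labelling, were lower on the siHLX array by a mean of -0.29 (SD 0.18, 24 probe sets). Scaling both arrays to equal poly-A controls would move the median of all genes up by 0.29, to 0.28, and turn differences below 0 but above -0.29 positive. All directions given here are therefore relative to the bulk of genes.

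The spread of differences between genes depended on the level. Over all genes its SD was 0.44 at levels below 6, 0.26 between 6 and 8, 0.17 between 8 and 10, and 0.11 at 10 or above. Of the 50 members, 29 lay at 10 or above and only 2 below 6. The pooled SD between probe sets of the same gene was 0.23 for members and 0.27 for all genes. It is no replicate error, since such probe sets read the same RNA and may also read different transcripts of a gene.

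Read by the brightest probe set, the 6 members at least 1.2-fold higher after HLX knockdown all lay in glycolysis and pyruvate entry. On the brightest probe sets all members of the pentose phosphate pathway lay lower, and the citrate cycle stayed near 0. At least 1.2-fold higher were 6 of the 50 members (ALDOC, PKM, PDK1, HK2, PFKFB4 and PFKL), against 12.0% of all 12135 genes above the threshold. At least 1.2-fold lower was RPIA as the only member, against 12.6% of all genes. None of the 50 members reached 2-fold in either direction, against 0.841% of all genes. Taken over the whole list, 25 members lay above 0 and 23 below, with a median of 0.01, against 47.4% above and 50.1% below and a median of -0.01 for all genes. The share at least 1.2-fold higher, 6 of 50, was close to that of all genes. So were the shares above and below 0 and the median over the whole list. The share at least 1.2-fold lower, 1 of 50, lay below that of all genes. Shares at 1.2-fold depend on the level, and of the genes at level 10 or above, where 29 of the 50 members lay, 1.32% were at least 1.2-fold lower.

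**Figure D1:**
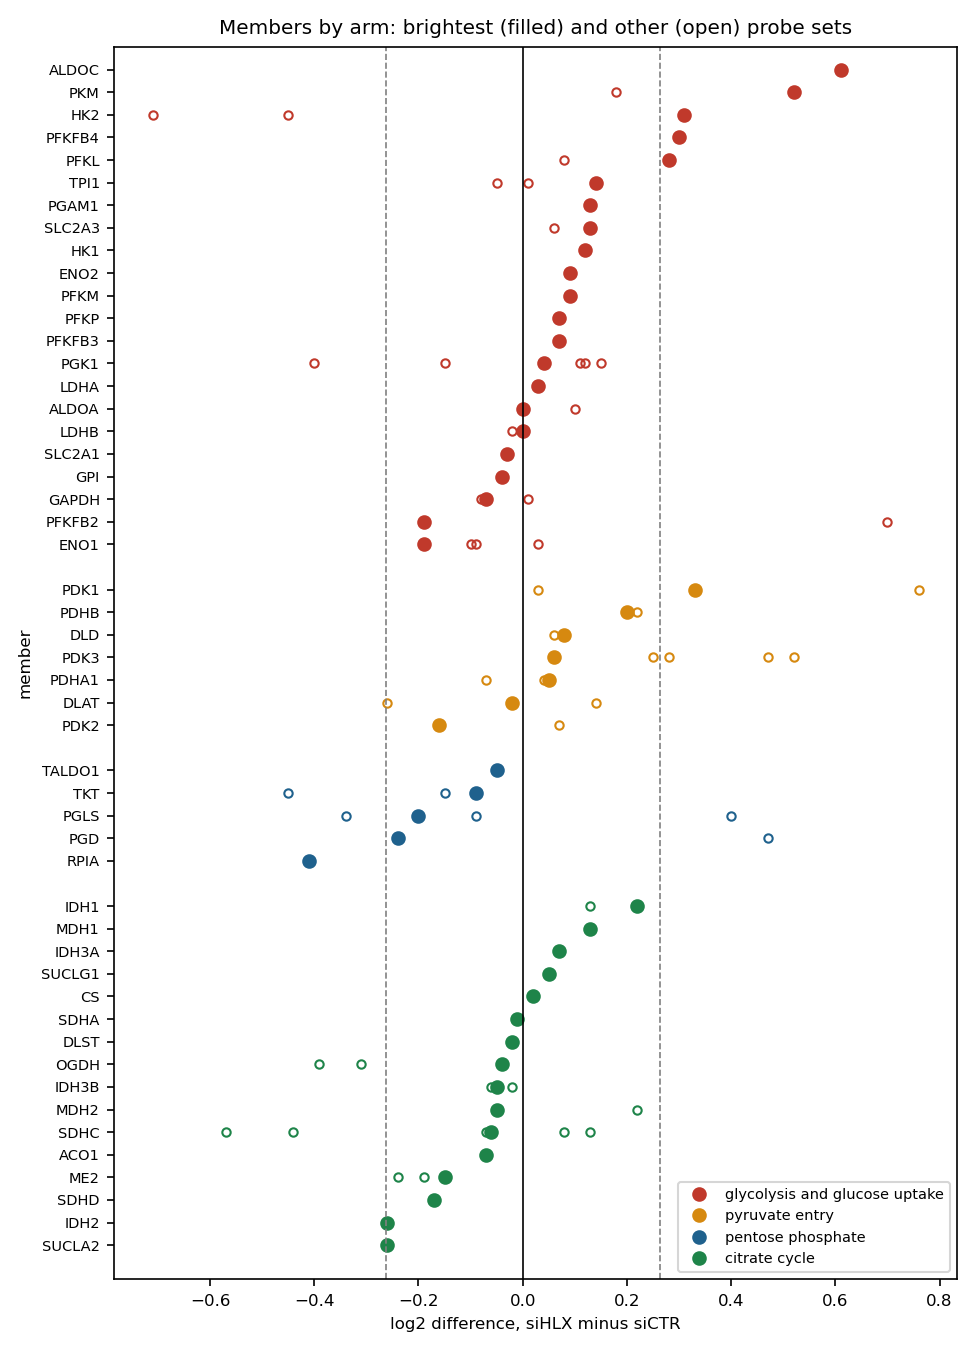
Difference in log2 intensity, siHLX minus siCTR (x axis), for 50 members (y axis), ordered within each arm; filled circles are the brightest probe set, open circles the other probe sets above the level threshold, and dashed lines mark 1.2-fold. ALDOC at 0.61 and PKM at 0.52 lie farthest to the right, all 5 filled circles of the pentose phosphate pathway lie left of 0, and open circles of several members, such as HK2, PFKFB2, PGD and PGLS, lie on the other side of 0 from their filled circle.

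In glycolysis with glucose uptake most members lay above 0. Of its 22 members 15 lay above 0, 5 below and 2 at 0, with a median of 0.08 and a range from -0.19 to 0.61. The share above 0 was 68.2%, against 71.4% in pyruvate entry and 47.4% of all genes. At least 1.2-fold higher were 5 of 22 and lower were 0, against 12.0% and 12.6% of all genes. Over all probe sets of the arm above the threshold the picture was more mixed, with 27 higher, 14 lower and 3 at 0 out of 44. Of all 22453 probe sets of genes above the threshold 47.5% were higher and 49.9% lower.

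ALDOC, an aldolase isoenzyme best known from brain, had the highest difference of all members. It read 7.36 with siHLX and 6.75 with siCTR on its only probe set, 1.53 times the control level. Of the 3617 genes at levels between 6 and 8, 1.38% lay as far up. PKM, the pyruvate kinase of the last step of glycolysis, read 9.12 with siHLX and 8.60 with siCTR, a difference of 0.52 or 1.43 times the control level. Only 0.547% of the 3842 genes at levels between 8 and 10 lay as far up. Its dimmer probe set had 0.18, so both readings of PKM were higher. The probe sets do not separate the splice forms of PKM in the annotation used.

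Glucose enters by SLC2A3 (GLUT3), a high-affinity transporter best known from neurons, and SLC2A1 (GLUT1). SLC2A3 read 11.37 with siHLX and 11.24 with siCTR, and its 3 probe sets had 0.13, 0.13 and 0.06. A further pair of probe sets that also matches the near-identical SLC2A14 had 0.21 and 0.03. SLC2A1 read 6.58 with siHLX and 6.61 with siCTR, a difference of -0.03. Of the genes at level 10 or above 10.3% lay as far up as SLC2A3, and of those between 6 and 8 47.2% lay as far down as SLC2A1.

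HK1 and HK2 are the hexokinases that trap glucose in the cell, HK2 being the inducible one of muscle and tumour cells. HK2 read 9.54 with siHLX and 9.23 with siCTR, a difference of 0.31, and 3.38% of genes at levels between 8 and 10 lay as far up. Its dimmer probe sets went the other way, with 6.20 and 5.54 on the siHLX array against 6.65 and 6.25 on the siCTR array, differences of -0.45 and -0.71. The mean over the 3 probe sets was -0.28, so the direction of HK2 depends on the probe set chosen. HK1 read 10.58 with siHLX and 10.46 with siCTR, a difference of 0.12.

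Phosphofructokinase commits glucose to glycolysis, and PFKFB enzymes make or break its activator fructose-2,6-bisphosphate. All 3 subunit genes lay above 0. PFKL, the liver-type subunit, read 7.63 with siHLX and 7.35 with siCTR, a difference of 0.28 on a probe set marked as able to bind other sequences, with 0.08 on its other probe set. PFKM read 9.39 with siHLX and 9.30 with siCTR, and PFKP 9.46 with siHLX and 9.39 with siCTR, differences of 0.09 and 0.07. Of the regulators, PFKFB4 read 7.25 with siHLX and 6.95 with siCTR, a difference of 0.30, but its probe set below the threshold had -0.38. PFKFB3 read 11.99 with siHLX and 11.92 with siCTR, a difference of 0.07. The readings of PFKFB2 disagreed, with -0.19 on the brighter (5.57 with siHLX, 5.76 with siCTR) and 0.70 on the dimmer probe set (5.57 with siHLX, 4.87 with siCTR). At this level 1.2-fold is well within the spread of genes.

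The abundant enzymes of the lower pathway moved little. TPI1 (triose phosphate isomerase) read 12.54 with siHLX and 12.40 with siCTR, and the mutase PGAM1 read 12.72 with siHLX and 12.59 with siCTR, differences of 0.14 and 0.13. The kinase PGK1 had 0.04 on its brightest probe set, and 0.11 to 0.15 on the next 3, while its dimmest pair had -0.15 and -0.40. ALDOA, the main aldolase of most cells, read 12.65 on both arrays. GPI, the isomerase of the second step, had -0.04. GAPDH read 13.86 with siHLX and 13.93 with siCTR, a difference of -0.07. Control probe sets for the 3', middle and 5' parts of the GAPDH transcript had -0.08, -0.06 and -0.02, so the ends differed by less than the spread of genes at this level.

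Enolase and lactate dehydrogenase completed the arm. ENO1, the common enolase, read 13.03 with siHLX and 13.22 with siCTR. Its difference of -0.19 was the lowest of the arm, level with that of PFKFB2. Of the 1900 genes at level 10 or above 5.53% lay as far down. The other probe sets of ENO1 had 0.03, -0.09 and -0.10. ENO2, the isoenzyme of neurons, read 9.51 with siHLX and 9.42 with siCTR, a difference of 0.09. LDHA, which favours lactate production, read 13.58 with siHLX and 13.55 with siCTR, and LDHB read 13.42 on both arrays. Neither subunit of lactate dehydrogenase differed by more than 0.03 on any probe set.

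**Figure D2:**
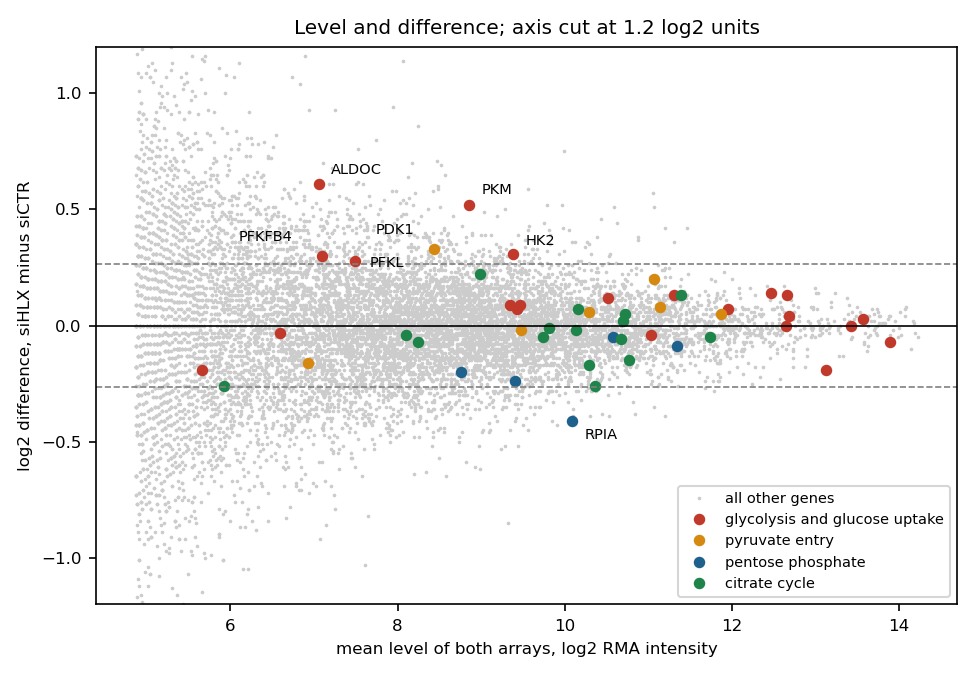
Each point is a gene, placed by its mean log2 RMA intensity over both arrays (x axis) and its log2 difference, siHLX minus siCTR (y axis); grey points are all other genes, coloured points the members by arm, dashed lines mark 1.2-fold, and 37 genes beyond 1.2 log2 units, none of them a member, are not shown. RPIA at -0.41 and PKM at 0.52 lie at the rim of the genes of their level, whereas the brightest members, such as LDHA and LDHB, lie close to 0.

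Pyruvate entry had its highest difference in PDK1, 1 of the PDH kinases, which phosphorylate the PDH complex and shut it down. Of the 7 members of the arm 5 lay above 0, against 47.4% of all genes, and 2 below, with a median of 0.06. Of their 20 probe sets 16 were higher, against 47.5% of all probe sets. PDK1, the kinase known for its induction in low oxygen, read 8.60 with siHLX and 8.27 with siCTR, a difference of 0.33, and 2.76% of genes at its level lay as far up. Its other probe sets had 0.76 (6.52 with siHLX, 5.76 with siCTR) and 0.03. PDK3 had 0.06 on its brightest probe set, with 10.32 with siHLX and 10.26 with siCTR. The 4 dimmer probe sets of PDK3 had 0.28, 0.25, 0.52 and 0.47, so all 5 were higher, though by very different amounts. PDK2 read 6.85 with siHLX and 7.01 with siCTR, a difference of -0.16, with 0.07 on its other probe set. Together, 9 of the 10 probe sets of these 3 kinases were higher, 5 of them repeat readings of PDK3, against 47.5% of all probe sets. On the brightest probe sets PDK2 was the lowest member of the arm.

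Of the complex itself 3 of 4 members lay above 0, with a median of 0.065, against 2 of 3 kinases with a median of 0.06. PDHB, the beta subunit of its first enzyme, read 11.17 with siHLX and 10.97 with siCTR, a difference of 0.20 with 0.22 on its second probe set, and 3.63% of genes at level 10 or above lay as far up. PDHA1, the alpha subunit that the kinases phosphorylate, had 0.05, 0.04 and -0.07. DLD, the dehydrogenase subunit shared with the oxoglutarate complex, had 0.08 and 0.06. DLAT, the acetyltransferase core, read 9.47 with siHLX and 9.49 with siCTR, a difference of -0.02, with -0.26 and 0.14 on its other probe sets. All probe sets were higher for 4 of the 7 members of this arm (PDK1, PDK3, PDHB and DLD), against 17.7% of the 5869 genes with 2 or more probe sets that passed the threshold.

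The pentose phosphate pathway was lower in all 5 members on the brightest probe set, against 50.1% of all genes below 0, with a median of -0.20 and a range from -0.41 to -0.05. With the arrays scaled to equal poly-A controls its median would lie at 0.09, and only RPIA would stay below 0. RPIA, the isomerase that makes ribose-5-phosphate, read 9.88 with siHLX and 10.29 with siCTR on its only probe set, 0.753 times the control level. Of the 1900 genes at level 10 or above, 0.105% lay as far down, RPIA included, and 1.32% were at least 1.2-fold lower. PGD, the dehydrogenase of the oxidative branch, read 9.28 with siHLX and 9.52 with siCTR, a difference of -0.24. Of its dimmer probe sets, that at the threshold had 0.47, which gives a mean of 0.12 with the brightest, and that below the threshold had -0.41. PGLS, the lactonase before PGD, read 8.66 with siHLX and 8.86 with siCTR, a difference of -0.20, with -0.09, 0.40 and -0.34 on dimmer probe sets.

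Transketolase and transaldolase, the carbon-shuffling enzymes that link the pathway back to glycolysis, were closer to 0. TKT read 11.30 with siHLX and 11.39 with siCTR, a difference of -0.09, and its other probe sets had -0.15 and -0.45, so all 3 were lower. TALDO1 read 10.55 with siHLX and 10.60 with siCTR, a difference of -0.05. Over the whole arm 9 of 11 probe sets were lower, against 49.9% of all probe sets. Both higher ones, of PGD and PGLS, lay at levels below 6. So did lower ones of TKT (-0.45) and PGLS (-0.34). The median of glycolysis lay 0.28 above that of the pentose phosphate pathway, a gap that a shift common to all genes does not change. It was 0.13 with the mean of all probe sets of each gene and 0.45 (4 pentose phosphate members) without probe sets that can match several transcripts. In the latter setting TALDO1 dropped out and TKT was read by its probe set with -0.45, at a level below 6. The gap between the medians was chosen for description after its values had been seen.

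**Figure D3:**
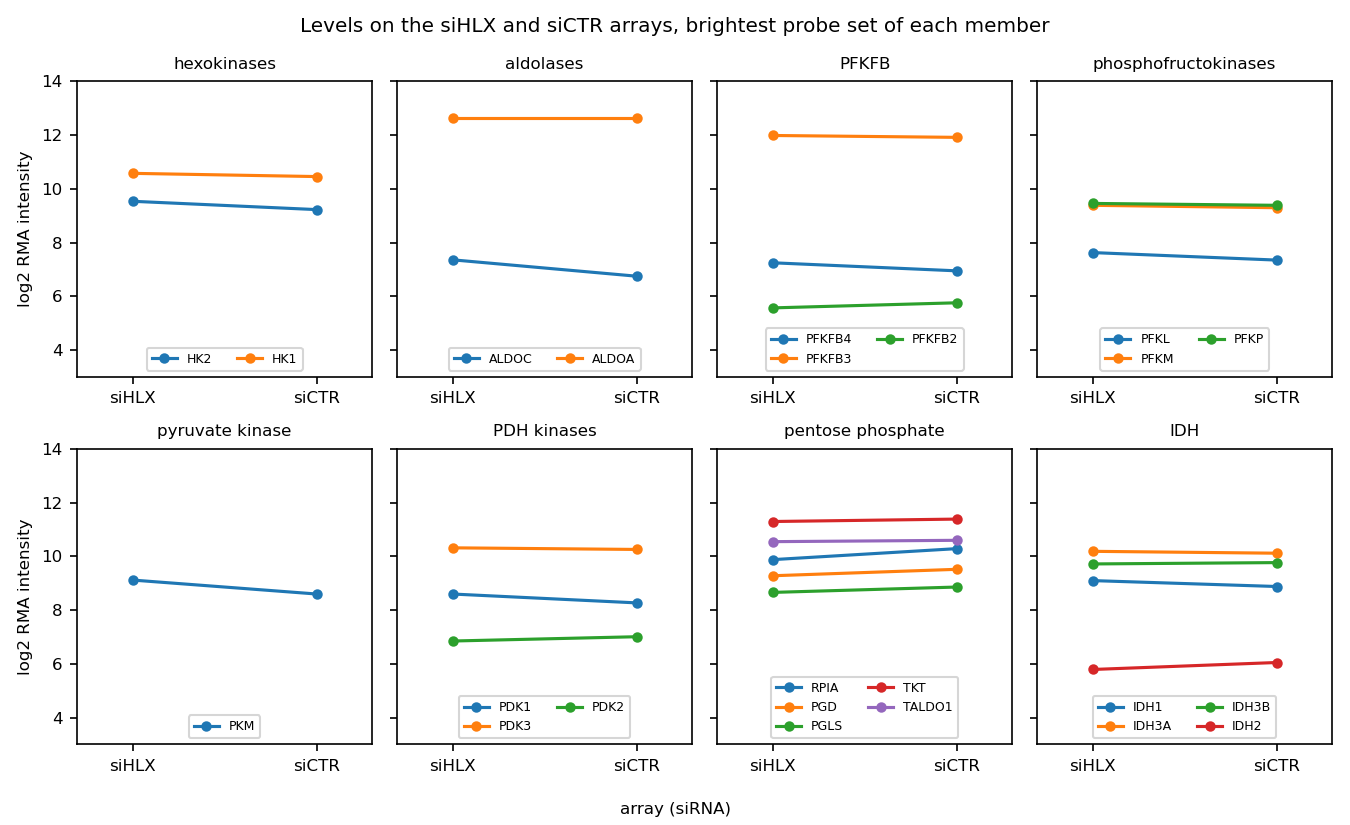
Levels (y axis, log2 RMA intensity) by array, siHLX and siCTR (x axis), of the members in 8 enzyme groups, each line joining the readings of the brightest probe set of 1 gene on both arrays. Lines for ALDOC, PKM and PDK1 are higher at siHLX and those of all 5 pentose phosphate members are lower at siHLX; heights of different genes are not comparable because each has its own probes.

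The citrate cycle lay slightly below 0. Of its 16 members 5 were above 0 and 11 below, against 47.4% and 50.1% of all genes. The median was -0.045 and the range went from -0.26 to 0.22. None reached 1.2-fold, but 10 of the 16 lay at level 10 or above. Few genes that bright passed this limit, 1.32% upward and 1.32% downward. With equal poly-A controls the median would lie at 0.24. Over its probe sets above the threshold 10 were higher and 20 lower, against 47.5% and 49.9% of all probe sets.

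SUCLA2, the ATP-forming subunit of succinyl-CoA ligase, had the lowest difference of the bright members of the cycle. It read 10.23 with siHLX and 10.49 with siCTR on its only probe set, a difference of -0.26, and 1.63% of genes at level 10 or above lay as far down. SUCLG1, the subunit common to both forms of the ligase, had 0.05. SDHD, a membrane anchor of succinate dehydrogenase (complex II of the respiratory chain), read 10.20 with siHLX and 10.37 with siCTR, a difference of -0.17. SDHA, the flavoprotein of that complex, had -0.01, and a probe set shared with its pseudogenes had 0.15. SDHC, the other anchor, had -0.06 on its brightest probe set, and its 6 probe sets ranged from -0.57 to 0.13. ME2, the mitochondrial malic enzyme that turns malate into pyruvate, read 10.69 with siHLX and 10.84 with siCTR, and its 3 probe sets had -0.15, -0.19 and -0.24. OGDH, the first enzyme of the oxoglutarate complex, was likewise lower on all 3, with -0.04, -0.31 and -0.39, the last pair at levels below 7. DLST, its second enzyme, had -0.02. CS (citrate synthase), the entry to the cycle, read 10.71 with siHLX and 10.69 with siCTR.

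Isocitrate and malate dehydrogenases exist in cytosolic and mitochondrial forms, and on the brightest probe sets the cytosolic forms had the higher differences. IDH1, cytosolic and NADP-dependent, read 9.10 with siHLX and 8.88 with siCTR. Its difference of 0.22 was the highest of the arm, with 0.13 on its second probe set above the threshold. IDH2, its mitochondrial counterpart, read 5.79 with siHLX and 6.05 with siCTR, a difference of -0.26. At the level of IDH2 27.1% of genes lay as far down. MDH1, cytosolic, read 11.45 with siHLX and 11.32 with siCTR, a difference of 0.13, while mitochondrial MDH2 read 11.71 with siHLX and 11.76 with siCTR, a difference of -0.05 with 0.22 on its dimmer probe set. ACO1, the cytosolic aconitase that doubles as an iron sensor, had -0.07 (8.21 with siHLX, 8.28 with siCTR). The NAD-dependent IDH3A read 10.19 with siHLX and 10.12 with siCTR, with 0.07 on both probe sets above the threshold, and IDH3B read 9.72 with siHLX and 9.77 with siCTR, with -0.05, -0.06 and -0.02.

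Probe sets of the same gene could be compared for 28 members. All had the same sign in 13 of them, with 9 higher and 4 lower, against 17.7% and 19.3% of all genes with at least 2 probe sets. All higher were SLC2A3, PFKL, PKM, PDK1, PDK3, PDHB, DLD, IDH1 and IDH3A. All lower were TKT, IDH3B, OGDH and ME2. Glycolysis had 3 such members of 11, pyruvate entry 4 of 7, the pentose phosphate pathway 1 of 3 and the citrate cycle 5 of 7. ALDOC, PFKFB4 and RPIA had 1 probe set above the threshold and could not be checked in this way. The probe sets of members below the threshold, 13 of 118, took no part and ranged from -0.91 for IDH1 to 1.18 for PFKP.

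Promoters are shown for the 4 members with the differences farthest from 0 (ALDOC, PKM, RPIA and PDK1), since glycolytic genes are known for hypoxia response elements. The sequences are from RefSeq (GRCh38.p14) and cover the 250 bases before each annotated start of transcription, 5′ to 3′ on the gene's strand. The core of a hypoxia response element, ACGTG or GCGTG on either strand, is in capitals. ALDOC lies on the minus strand at chr17:28576896-28577145, PKM on the minus strand at chr15:72231191-72231440 and RPIA on the plus strand at chr2:88691423-88691672. PDK1 has 2 annotated starts on the plus strand, with windows at chr2:172555123-172555372 and chr2:172555840-172556089.
ALDOC: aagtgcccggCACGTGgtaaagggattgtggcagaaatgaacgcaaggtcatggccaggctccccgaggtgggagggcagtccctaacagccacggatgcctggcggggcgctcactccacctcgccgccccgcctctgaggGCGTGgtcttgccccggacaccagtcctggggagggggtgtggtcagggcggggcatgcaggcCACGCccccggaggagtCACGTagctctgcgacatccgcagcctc
PKM: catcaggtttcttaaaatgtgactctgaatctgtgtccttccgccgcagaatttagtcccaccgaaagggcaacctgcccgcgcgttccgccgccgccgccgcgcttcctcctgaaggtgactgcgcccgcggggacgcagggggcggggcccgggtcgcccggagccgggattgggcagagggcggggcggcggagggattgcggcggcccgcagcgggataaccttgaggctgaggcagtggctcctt
RPIA: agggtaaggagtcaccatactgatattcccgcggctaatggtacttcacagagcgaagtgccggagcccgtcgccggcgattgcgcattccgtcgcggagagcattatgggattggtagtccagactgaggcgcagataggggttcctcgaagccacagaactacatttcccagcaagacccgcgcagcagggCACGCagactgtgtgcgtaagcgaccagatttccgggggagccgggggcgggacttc
PDK1, first start: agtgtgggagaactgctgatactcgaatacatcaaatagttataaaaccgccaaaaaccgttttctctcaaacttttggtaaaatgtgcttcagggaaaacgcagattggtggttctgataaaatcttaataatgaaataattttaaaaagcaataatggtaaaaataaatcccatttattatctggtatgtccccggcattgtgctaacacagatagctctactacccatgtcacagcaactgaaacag
PDK1, second start: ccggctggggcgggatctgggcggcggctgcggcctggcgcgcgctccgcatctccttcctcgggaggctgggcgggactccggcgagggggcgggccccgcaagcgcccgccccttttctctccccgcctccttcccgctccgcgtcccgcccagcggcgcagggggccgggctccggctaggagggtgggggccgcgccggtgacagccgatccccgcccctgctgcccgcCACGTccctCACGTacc

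ACGTG occurred 3 times before ALDOC, where 2 of the matches are both strands of the same CACGTG, a sequence that MYC-type factors also bind, and GCGTG occurred 2 times. The window of the second start of PDK1 held ACGTG 2 times, that of RPIA held GCGTG 1 time, and those of PKM and of the first start of PDK1 held neither. Of the 54 members 49 had a promoter in the table. By gene, ACGTG was found before 13 of 21 glycolysis members, 5 of 7 pyruvate entry members, 1 of 5 pentose phosphate members and 1 of 16 citrate cycle members, against 21.7% of all 27303 genes. Members can have several starts, so by window the shares were 34.8% for glycolysis and 18.5% for all genes. By gene, GCGTG was found before 12 of 21 glycolysis members, 6 of 7 pyruvate entry members, 2 of 5 pentose phosphate members and 10 of 16 citrate cycle members, against 36.2% of all genes. By window its share was 30.4% for glycolysis and 32.2% for all genes. Windows of members were richer in G and C, with a median of 67.4%, than those of all genes, with 58.0%. TAATTG, which reads CAATTA on the other strand and is a core bound by many homeodomain proteins, lay before 3 members (HK1, LDHA and PFKM), in 4 of 80 member windows against 6.70% of all. TAATTA lay before CS and SUCLG1. A match of this kind is a description of the letters and no binding site.

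Beside the members stood 40 further genes of the same pathways, of which 36 had a probe set of their own and 25 passed the threshold. These went both ways, with 13 above 0 and 11 below, against 47.4% and 50.1% of all genes. At least 1.2-fold higher were 4 of the 25 and lower were 3, against 12.0% and 12.6% of all genes. The highest was PDP1, a PDH phosphatase that reverses the PDH kinases, with 8.89 with siHLX and 8.24 with siCTR, a difference of 0.65. Its second probe set had 0.08. SLC16A7, a monocarboxylate transporter, had 0.33 on its brightest probe set, and its 5 probe sets ranged from -0.10 to 0.33. The lowest were ENO3, the muscle enolase, with 5.60 with siHLX and 6.03 with siCTR, and ME3, a mitochondrial malic enzyme, with 8.35 with siHLX and 8.71 with siCTR. Their differences were -0.43 and -0.36.

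Genes of the low-oxygen response and of oxidative phosphorylation are the neighbours of these pathways. Of 29 low-oxygen genes above the threshold, none of them a member here, 21 lay above 0 and 8 below with a median of 0.14. Of all genes 47.4% lay above 0 and 50.1% below. At least 1.2-fold higher were 9 of the 29 and lower were 0, against 12.0% and 12.6% of all genes. MXI1, a MYC antagonist, read 7.56 with siHLX and 6.88 with siCTR, and DDIT4, an mTOR inhibitor induced by stress, 8.78 with siHLX and 8.18 with siCTR. STC2 and WSB1 were lowest at -0.24 each on the brightest probe set. The 4 probe sets of WSB1 ranged from -0.85 to -0.06, and the second of STC2 had 0. Of 62 subunits of respiratory complexes I, III, IV and V, 26 lay above 0 and 32 below with a median of -0.01. On the brightest probe sets 0 reached 1.2-fold. At level 10 or above lay 58 of the 62. Of all genes at that level 44.4% lay above 0, 1.32% were at least 1.2-fold higher and 1.32% lower. On these probe sets NDUFB4 and NDUFV2 were highest at 0.16 each, and NDUFB7 at -0.16 and NDUFA6 at -0.13 lowest. The second probe set of NDUFB4 had -0.35 and that of NDUFA6 had 0.09.

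**Figure D4:**
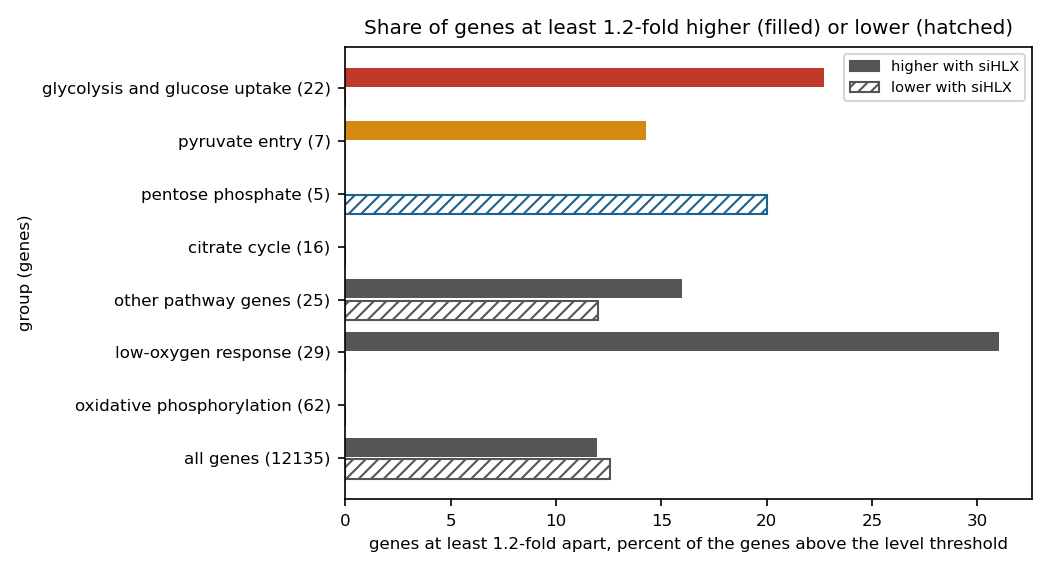
Percentage of the genes above the level threshold (x axis) that were at least 1.2-fold higher (filled bars) or lower (hatched bars) after HLX knockdown, for the 4 arms, 3 comparison lists and all genes (y axis, number of genes in parentheses). Bars for all genes stand at 12.0% and 12.6%; groups differ in level, and bright groups such as oxidative phosphorylation have few such genes.

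Within the 29 members at level 10 or above, 15 lay above 0 and 12 below, against 44.4% of the 1900 genes there above 0. RPIA was the only one of them at 1.2-fold. Between 8 and 10, 3 of 14 members were at least 1.2-fold higher (PKM, PDK1 and HK2), against 5.23% of genes at that level, and 0 were lower, against 6.12%. Between 6 and 8, 3 of 5 were higher (ALDOC, PFKFB4 and PFKL), against 13.8% of genes, and 0 were lower, against 14.6%.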

How the data were processed

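Expression was measured in 2 samples of the cell line SU-DHL-1, grouped by the siRNA in their labels. The authors deposited log2 intensities with 2 decimals, 1 value per probe set. Their methods describe RMA background correction and quantile normalisation with the limma and affy packages. Package versions are not given in the sources used here. A division by the sample mean that the methods mention was not applied in these values. Quantile normalisation gives both arrays the same overall brightness and hides any change common to most transcripts.

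Of 54613 probe sets other than controls, 41091 were paired with 1 gene, 1801 with several and 11721 with none in the platform annotation. Symbols were checked through the Entrez identifier with the RefSeq table of GRCh38.p14, where 41037 were found and 0 changed. Genes were read by their brightest probe set with a mean of at least 4.865. No test was run, as there was 1 array per group, and the number of arrays limits the precision. A limit of 1.2-fold, which is 0.26 on the log2 scale, was used for counts. Percentages of genes as far up or down refer to all genes above the threshold in the same band of level (below 6, 6 to 8, 8 to 10, 10 or above).

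The members and lists were chosen with earlier results of these data known. Every member is accounted for. Values on both arrays are given for members at 1.2-fold, for the 2 highest and 2 lowest of each arm and for isoenzymes, and of other lists the 2 highest and 2 lowest genes are named. As alternatives, differences were centred on the median, freed of their trend with level (lowess, fraction 0.2), scaled to equal poly-A controls or computed after a further quantile normalisation. Genes were also read by the mean of their probe sets, or only by probe sets without the suffix _s_at, _x_at or _a_at, which marks possible matches to several transcripts. The level threshold was dropped or raised to the 75th percentile (7.095), and a 1.5-fold limit was used. The steps were checked by adding known shifts to the deposited values of randomly chosen genes and reading them back. This checks the computation only and says nothing about noise. Computations used Python 3.11.15, pandas 2.3.3 and statsmodels 0.14.6.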

Additional observations from a re-analysis of the deposited data

How the results depend on the processing

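Equal poly-A controls moved every value up by 0.29. The median then was 0.30 over all members, 0.37 for glycolysis, 0.35 for pyruvate entry, 0.0892 for the pentose phosphate pathway and 0.24 for the citrate cycle, so the last pair changed sign; 49 members lay above 0 and 1 below, 30 were at least 1.2-fold higher and 0 lower. The shares of all genes became 53.5% higher and 2.89% lower. When the probe sets of a gene were averaged, the pentose phosphate median was -0.0575, its distance from glycolysis 0.13, HK2 had -0.28, and 2 members were at least 1.2-fold lower. Lowess and quantile normalisation also gave 2 such members. Without _s_at, _x_at and _a_at probe sets 31 members could be read: the median was 0.06 over all, -0.325 for the pentose phosphate pathway and 0 for the citrate cycle, the distance 0.45, 12 lay below 0, 3 were at least 1.2-fold lower, and 6 of 10 members had probe sets of equal sign. At 1.5-fold 1 member (ALDOC) was higher and 0 lower. Under the alternatives run, all other medians kept their sign and all other counts over the list stayed within 1.5 times. The cause of these moves was not tested where the setting itself does not give it. No paired analysis was possible because each treatment had 1 array.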
